A study of Homo sapiens with 20 samples.

Results

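TXNIP, 4 arrestin-domain genes related to it (ARRDC1, ARRDC2, ARRDC3 and ARRDC4) and the 3 genes of the MondoA transcription factor family (MLX, MLXIP and MLXIPL) are described here in MDA-MB-231 cells, an established human triple-negative breast cancer line. They are 8 of the 18417 genes with a single symbol in the annotation of the array, and each was represented by 1 transcript cluster, the set of probes that covers a gene. The set was chosen by the level of TXNIP, known to be low under TM in these same arrays, and was filled with its relatives and regulators by name. For that reason TM alone against Control is given as a description with no test for all 8 genes. The study asked how cisplatin, a platinum drug that crosslinks DNA, and ammonium tetrathiomolybdate (TM), a copper chelator, act on these cells alone and together. RNA was measured on 20 Affymetrix Human Gene 1.0 ST arrays. The groups were Control with 3 arrays, cisplatin for 12 h (Cis 12 h) or 24 h (Cis 24 h) with 3 arrays each, TM for 12 h with 2 arrays or 24 h with 3 arrays (TM 12 h and TM 24 h), and both drugs for 12 h or 24 h with 3 arrays each (Cis/TM 12 h, Cis/TM 24 h). Cisplatin was used at 36 µM and TM at 10 µM. The 3 Control arrays carry no time in their labels and served both times, so that time in culture and treatment cannot be told apart in a comparison with Control. All groups are 1 cell line. The methods describe replicate wells for each treatment, while the labels tie no array to a well, so the p-values measure at most the spread between wells of 1 line.

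TXNIP and the ARRDC proteins are alpha-arrestins, adaptors that bring membrane proteins to ubiquitin ligases of the NEDD4 family for internalization. TXNIP also binds thioredoxin, and it lowers glucose uptake by removing glucose transporters from the cell surface. MondoA, the product of MLXIP, stays outside the nucleus until glucose 6-phosphate builds up, then enters it with its dimerization partner MLX and switches on TXNIP and ARRDC4, which closes a feedback loop on glucose uptake. ChREBP, the product of MLXIPL, does the same mainly in liver and fat. ARRDC3 is best known in breast cancer as an adaptor that sends integrin beta 4 and the beta 2 adrenergic receptor for degradation.

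The promoters of TXNIP and ARRDC4 are shown because MondoA with MLX is known to bind there through paired E-box-like motifs, and because the levels of these 2 genes moved together across the arrays. RefSeq (GRCh38.p14) gave a start site for 8 of 8 genes, with 11 windows of the 250 bases before a start. The first TXNIP window lies at chr1:145996580-145996829 on the minus strand and the ARRDC4 window at chr15:97960453-97960702 on the plus strand, both outside the transcribed gene. In the lines below, written 5′ to 3′ along the gene, capitals mark matches on either strand to CCAAT, to CACGTG and to the paired form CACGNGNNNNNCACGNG.
TXNIP: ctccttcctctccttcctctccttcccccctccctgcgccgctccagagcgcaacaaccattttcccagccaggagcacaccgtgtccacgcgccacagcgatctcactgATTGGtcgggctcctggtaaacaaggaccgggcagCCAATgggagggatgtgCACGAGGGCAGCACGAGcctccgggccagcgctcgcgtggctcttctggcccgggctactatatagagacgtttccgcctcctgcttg
ARRDC4: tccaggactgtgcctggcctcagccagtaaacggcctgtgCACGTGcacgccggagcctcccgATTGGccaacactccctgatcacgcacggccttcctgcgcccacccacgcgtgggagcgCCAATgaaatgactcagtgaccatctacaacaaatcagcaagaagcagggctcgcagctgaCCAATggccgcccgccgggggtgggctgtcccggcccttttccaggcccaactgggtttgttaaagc
The paired form was found in TXNIP from −88 to −72 relative to the start, and in 16 of 35116 windows (0.0456%) of all genes. TXNIP was the only one of the 8 genes with it. CACGTG stood in ARRDC4 from −210 to −205 and in MLX from −50 to −45, against 6.34% of all windows, and it can overlap the paired form. CCAAT occurred 2 times in the TXNIP window and 3 times in the ARRDC4 window, and at least once in 32% of all windows. A match is a description of these letters and not evidence of binding in these cells.

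Correlations between arrays of a group ran from 0.983 to 0.997, with the lowest between Control replicates B and C. Cis 12 h replicate A and TM 24 h replicate A stood apart from the rest of their groups on the second principal component (13.2% of the variance), and results that rest on them were also computed without them. On it they lay at 35.2 and 19.1, on the side of the Control arrays (13.4 to 22.8). The SD over all genes was 2.01 to 2.03 on the Control arrays and 2.03 and 2.04 on these 2. On the other treated arrays it was 2.10 to 2.18. Differences from Control may therefore also hold this difference in spread between arrays, and the alternative scalings given below bear on their size. Among markers of the line, VIM and CD44 lay at percentiles 99.3 and 99.4 of all genes in Control, and ESR1, PGR and CDH1 at 15.9, 9.64 and 13.1. ERBB2 and EPCAM, both listed as low in this line, lay at 51.2 and 85.9. The leukocyte genes PTPRC and CD3E lay at 2.37 and 9.21.

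TXNIP was at its lowest in TM alone. Its log2 level was 10.75, 10.74 and 10.64 on the Control arrays, 8.76 and 8.85 in TM 12 h, and 8.93, 8.62 and 8.87 in TM 24 h. All 5 TM arrays lay far below the Control arrays, and there was no overlap between them and any other group. The difference from Control was −1.90 at 12 h, a 3.74-fold lower level, and −1.90 at 24 h, 3.73-fold lower. By size these differences ranked 4 and 3 from the lowest of 18417 genes. With both drugs TXNIP was not low. Its level there was 11.34, 11.28 and 11.18 at 12 h and 10.65, 10.60 and 10.65 at 24 h. With cisplatin alone it was 11.18, 11.30 and 11.19 at 12 h and 10.98, 10.86 and 10.86 at 24 h. The arrays with both drugs therefore lay far above those with TM. At 12 h they overlapped the cisplatin arrays. At 24 h they all lay below the cisplatin arrays and overlapped Control. The group means ran in the order Cis/TM 12 h (11.27 ± 0.08, SD, n = 3), Cis 12 h (11.22 ± 0.07, n = 3), Cis 24 h (10.90 ± 0.07, n = 3), Control (10.71 ± 0.06, n = 3), Cis/TM 24 h (10.64 ± 0.03, n = 3), TM 24 h (8.81 ± 0.16, n = 3) and TM 12 h (8.81 ± 0.06, n = 2). Neighbours whose arrays overlapped were both 12 h groups with cisplatin, Control with Cis/TM 24 h, and both TM groups. These are values for whole cultures relative to the rest of each array, so a lower level in every cell and fewer cells that make the RNA cannot be told apart.

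**Figure D1:**
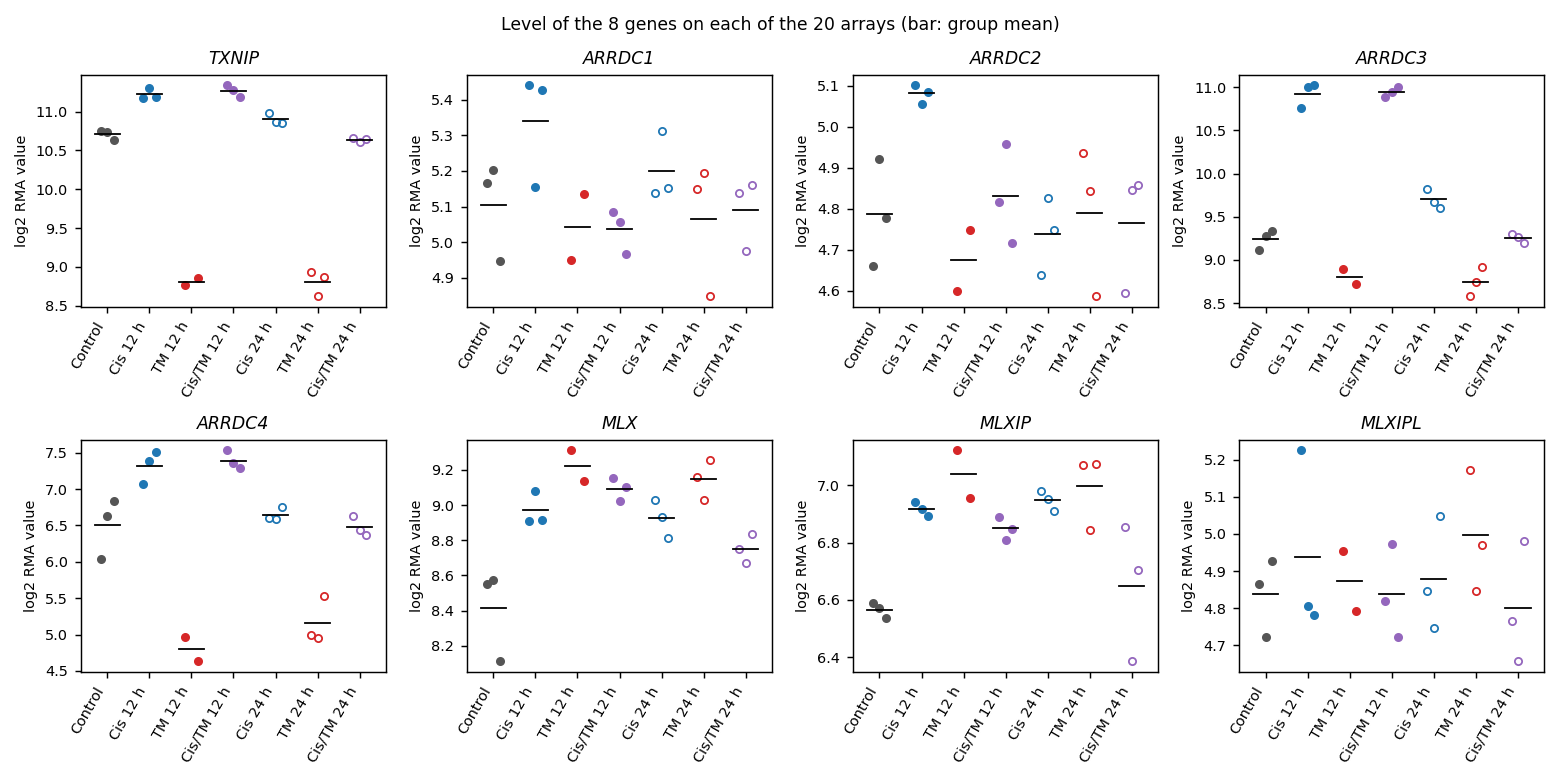
Log2 RMA level (y axis, each panel with its own scale) of the 8 genes on each of the 20 arrays, by group (x axis), with points for arrays and bars for group means. The 5 arrays of TM alone are the lowest of all 20 for TXNIP, ARRDC3 and ARRDC4, and the levels of ARRDC1, ARRDC2 and MLXIPL stay within 0.41 between group means.

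ARRDC4, the closest relative of TXNIP in the set by function and likewise a brake on glucose uptake, showed the same order. Its level was 6.04, 6.63 and 6.84 in Control, 4.97 and 4.63 in TM 12 h, and 4.99, 4.96 and 5.53 in TM 24 h. Differences from Control were −1.70 at 12 h and −1.35 at 24 h, ranks 8 and 17 from the lowest. In TM alone ARRDC4 lay near the level of ARRDC1, ARRDC2 and MLXIPL, where the arrays do not tell a low signal from none. The size of its TM differences is therefore uncertain. In Cis/TM 12 h it was 7.53, 7.35 and 7.29, and in Cis/TM 24 h 6.63, 6.44 and 6.36, overlapping the cisplatin arrays (7.07, 7.38 and 7.52 at 12 h, 6.60, 6.59 and 6.75 at 24 h). At 24 h the arrays with both drugs also overlapped Control. Replicates of ARRDC4 spread more than those of TXNIP, with a residual SD of 0.25 against 0.09.

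ARRDC3 was lower in TM by a smaller amount. It read 9.12, 9.28 and 9.34 in Control, 8.89 and 8.72 in TM 12 h, and 8.58, 8.74 and 8.92 in TM 24 h, differences of −0.44 and −0.50. Without TM 24 h replicate A the 24 h difference was −0.41, and those of TXNIP and ARRDC4 were −1.96 and −1.26. For ARRDC3, as for TXNIP and ARRDC4, the 5 arrays of TM alone all lay below the other 15, with 8.92 the highest of the former and 9.12 the lowest of the latter. Of all genes 208 (1.13%) had that arrangement.

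The transcription factors stood on the other side of Control. MLX, the shared dimerization partner, read 8.55, 8.57 and 8.11 in Control, 9.31 and 9.13 in TM 12 h, and 9.16, 9.03 and 9.25 in TM 24 h, with differences of 0.81 and 0.73. Control replicate C was well below the other Control arrays, and without it the differences were 0.66 and 0.58. MLXIP, which encodes MondoA, read 6.59, 6.57 and 6.54 in Control, 7.12 and 6.96 in TM 12 h, and 7.07, 6.84 and 7.08 in TM 24 h, with differences of 0.47 and 0.43. The size for MLXIP rested on the scaling of the arrays, with 0.23 and 0.29 after quantile normalization. In TM against Control, 5 of the 8 genes had arrays that did not overlap at each time (TXNIP, ARRDC3 and ARRDC4 lower, MLX and MLXIP higher), beside 50.0% of all genes at 12 h and 29.0% at 24 h.

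The other 3 genes were low on these arrays. MLXIPL, which encodes ChREBP, lay between 4.66 and 5.22 on all 20 arrays, ARRDC1, an adaptor known for budding of vesicles from the plasma membrane, between 4.85 and 5.44, and ARRDC2, an alpha-arrestin of less settled role, between 4.59 and 5.10. Their mean levels fell at percentiles 31.7, 36.6 and 30.5 of all genes, against 96.8 for TXNIP, 93.0 for ARRDC3, 87.1 for MLX, 66.0 for MLXIP and 59.7 for ARRDC4. At this level the arrays do not tell a low signal from none. Their differences between TM alone and Control ran from −0.11 to 0.16.

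Whether TM acts in the same way on cells that also receive cisplatin was examined by comparing Cis/TM with Cis, which uses neither the Control arrays nor the arrays of TM alone. A gene was called at an adjusted p under 0.05 in limma (a linear model over all genes and arrays) and a fold change over 1.5. At 12 h none of the 8 genes was called, as none of the 18417 genes was (0.00%), and 52 of all genes and 0 of the 8 passed the fold minimum at an unadjusted p under 0.05. TXNIP differed by 0.05 (95% confidence interval −0.15 to 0.24, adjusted p = 0.918), ARRDC4 by 0.07 (−0.31 to 0.45, adjusted p = 0.94) and ARRDC3 by 0.02 (−0.20 to 0.25, adjusted p = 0.97). The lower bounds for TXNIP and ARRDC4 were far smaller in size than the differences seen with TM alone. That is a description and no test, since TXNIP was chosen for its level in TM alone. ARRDC1, ARRDC2 and MLXIP had lower values on all Cis/TM arrays than on all Cis arrays (15.2% of all genes did not overlap in either direction), by −0.30, −0.25 and −0.07, with adjusted p of 0.393, 0.493 and 0.889. For MLXIP the nearest arrays of the groups were almost equal, at 6.8905 in Cis/TM 12 h and 6.8924 in Cis 12 h. Without Cis 12 h replicate A the differences were 0.02 for TXNIP, −0.06 for both ARRDC3 and ARRDC4, −0.26 for ARRDC1, −0.24 for ARRDC2 and −0.06 for MLXIP, so that ARRDC3 and ARRDC4 lay on the other side of 0, and none was called.

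At 24 h TM added to cisplatin gave calls for 277 genes (1.5%), again with 0 of the 8 among them, also at an unadjusted p. ARRDC3 was nearest to a call. Its level was 9.82, 9.68 and 9.61 with cisplatin and 9.30, 9.27 and 9.20 with both drugs, a difference of −0.44 (SE 0.11, adjusted p = 0.0275) that stayed under the fold minimum at 1.36-fold. TXNIP was lower on all arrays by −0.26 (−0.46 to −0.07, adjusted p = 0.125), and ARRDC4 by −0.17 with overlapping arrays (−0.55 to 0.21, adjusted p = 0.719). MLX differed by −0.17 (adjusted p = 0.499) and MLXIP by −0.30 (adjusted p = 0.124), the latter by −0.17 without Cis/TM 24 h replicate B. Arrays of TXNIP, ARRDC3 and MLXIP did not overlap, beside 29.1% of all genes. The change in the TM effect from 12 h to 24 h was itself tested in the cells given cisplatin. It was called for 8 of 18417 genes (0.0434%) and for 0 of the 8, with −0.31 for TXNIP (adjusted p = 0.379) and −0.46 for ARRDC3 (−0.78 to −0.15, adjusted p = 0.266).

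The departure from additive log2 changes (the Cis/TM difference from Control less those of each drug alone) holds the arrays of TM alone, and is given as a description. For TXNIP it was 1.95 (SE 0.14) at 12 h and 1.64 (SE 0.13) at 24 h, and for ARRDC4 1.77 (SE 0.27) and 1.17 (SE 0.26). These are close in size to the differences of TM alone from Control, with the sign turned. The sizes for ARRDC4 rest on its level in TM alone, where the arrays do not tell a low signal from none. ARRDC3 departed by 0.46 at 12 h and 0.05 at 24 h, so that at 24 h its TM difference was of like size without and with cisplatin (−0.50 and −0.44). MLX departed by −0.69 and −0.91, and MLXIP by −0.54 and −0.73. Without Cis 12 h replicate A and TM 24 h replicate A the departures were 1.93 and 1.70 for TXNIP, 1.64 and 1.09 for ARRDC4, and 0.37 and −0.03 for ARRDC3. Set directly against TM alone, Cis/TM stood 2.46 higher for TXNIP at 12 h and 1.83 at 24 h, and 2.59 and 1.32 higher for ARRDC4.

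**Figure D2:**
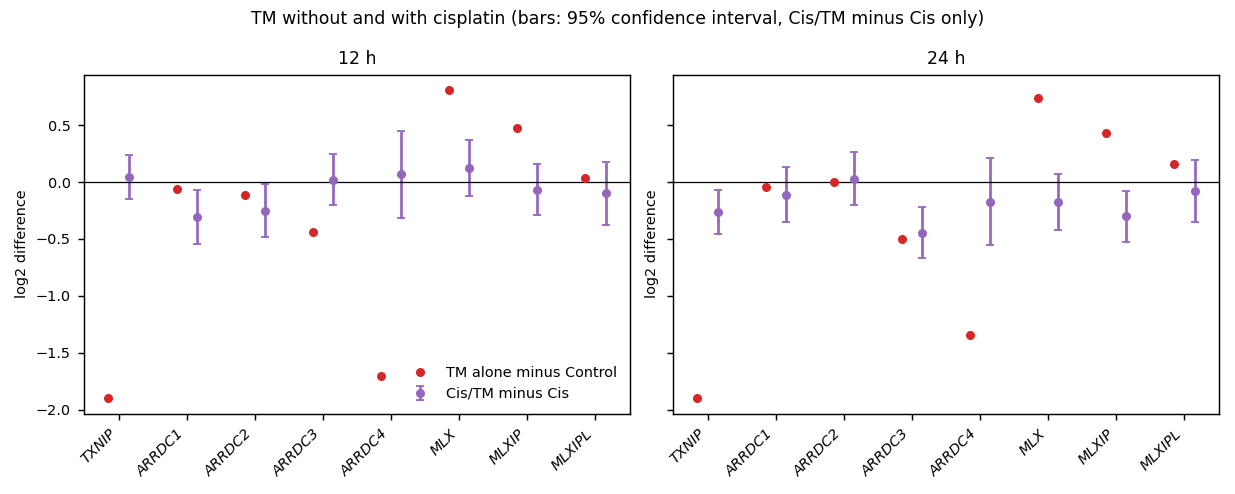
Log2 difference (y axis) made by TM in the 8 genes (x axis) without cisplatin (TM minus Control, red) and with it (Cis/TM minus Cis, purple) at 12 h and 24 h, with points for differences. Bars are 95% confidence intervals of the model for Cis/TM minus Cis, and TM minus Control, which chose the genes, carries none. TXNIP stands at −1.90 without cisplatin at both times, and at 0.05 (12 h) and −0.26 (24 h) with it.

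Cisplatin alone gave the largest change of the set in ARRDC3. Its level was 10.76, 11.00 and 11.03 in Cis 12 h against 9.12 to 9.34 in Control, with no overlap, and it rose by 1.68 (SE 0.11, 3.21-fold, adjusted p = 4.3e-10). ARRDC4 rose by 0.82 (SE 0.18, adjusted p = 8.9e-04), a call that was lost, at 0.55, when the trend of each array's values with level was removed. Without Cis 12 h replicate A these differences were 1.77 and 0.95, and both were called. These 2 of 8 were the genes called in Cis 12 h against Control, both higher, where 25.5% of all genes were called and 14.8% were called higher. TXNIP differed by 0.51 (SE 0.09, adjusted p = 1.3e-04) and MLX by 0.56 (SE 0.12, adjusted p = 5.8e-04), both under the fold minimum at 1.43-fold and 1.47-fold. MLX passed it without Cis 12 h replicate A (0.59), Control replicate A (0.63) or Control replicate B (0.64). MLXIP differed by 0.35 (adjusted p = 0.0101). The median of the 8 was 0.43, beside −0.01 over all genes, and 6 of 8 had Cis 12 h arrays all above Control (47.4% of all genes did not overlap in either direction). These comparisons share the Control arrays with the TM differences above.

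At 24 h of cisplatin 0 of the 8 genes were called in limma, also at an unadjusted p, where 16.4% of all genes were. ARRDC3 differed from Control by 0.46 (adjusted p = 0.00247), MLX by 0.51 (adjusted p = 0.00196), MLXIP by 0.38 (adjusted p = 0.0081) and TXNIP by 0.19 (adjusted p = 0.118). Without Control replicate B, MLX was called. The step from 12 h to 24 h was tested directly. ARRDC3 fell by 1.22 (SE 0.11, adjusted p = 2.1e-07) and ARRDC4 fell by 0.67 (SE 0.18, adjusted p = 0.00968), the 2 of 8 called, where 10.6% of all genes were called and 3.42% were called lower. Without Cis 12 h replicate C the ARRDC4 call was lost (−0.58, adjusted p = 0.0507), and without replicate A the differences were −1.31 for ARRDC3 and −0.80 for ARRDC4. TXNIP differed by −0.32 (adjusted p = 0.0156), under the fold minimum.

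With both drugs ARRDC3 and ARRDC4 were likewise higher than Control at 12 h and lower at 24 h than at 12 h. In Cis/TM 12 h ARRDC3 read 10.89, 10.95 and 11.01 and rose over Control by 1.70 (SE 0.11, 3.26-fold, adjusted p = 4.9e-10). ARRDC4 rose by 0.89 (SE 0.18, adjusted p = 4.8e-04) and MLX by 0.68 (SE 0.12, adjusted p = 8.7e-05). These 3 of 8 stood beside 23.8% of all genes called and 15.2% called higher. TXNIP differed by 0.56 (1.48-fold, adjusted p = 6.0e-05), and was called, at 0.60, without Cis/TM 12 h replicate C. The MLX call was lost at 0.53 without Control replicate C, and under each of the 3 other scalings of the arrays (0.53 to 0.57). None of the 8 was called in Cis/TM 24 h against Control, also at an unadjusted p, where 7.02% of all genes were. TXNIP differed by −0.07 (−0.27 to 0.12), ARRDC3 by 0.01 (−0.21 to 0.24), where cisplatin alone stood at 0.46, and ARRDC4 by −0.02 (−0.40 to 0.35). Between Cis/TM 12 h and Cis/TM 24 h, ARRDC3 fell by 1.69 (SE 0.11, adjusted p = 3.8e-09), ARRDC4 fell by 0.91 (SE 0.18, adjusted p = 6.7e-04) and TXNIP fell by 0.63 (SE 0.09, 1.55-fold, adjusted p = 3.5e-05), where 13.7% of all genes were called and 8.07% were called lower. The TXNIP call was lost, at −0.55, when arrays were centred on their medians.

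Under TM alone none of the 8 genes was called between 12 h and 24 h. TXNIP differed by 0.00 from TM 12 h to TM 24 h (−0.22 to 0.22) and ARRDC4 by 0.36 (−0.07 to 0.78, adjusted p = 0.872). Of all genes 1 was called in limma (0.00543%), with 61 past the fold minimum at an unadjusted p and 0 of the 8 by either.

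Over the 20 arrays TXNIP correlated with ARRDC4 (Pearson r = 0.95) and ARRDC3 (0.78), less with ARRDC2 (0.36) and ARRDC1 (0.32), and negatively with MLX (−0.37), MLXIP (−0.37) and MLXIPL (−0.20). The arrays share 7 groups, and these values mostly restate the group means. Within groups, after the group means were taken out, r with TXNIP was 0.04 for ARRDC4, −0.09 for ARRDC3, 0.56 for MLX and 0.44 for MLXIP. MLX and MLXIP followed each other over the arrays (0.82), as did ARRDC3 and ARRDC4 (0.87). The 5 genes whose pattern was most like that of TXNIP by Pearson r over the 20 arrays were SLFN5 (0.98), CCNDBP1 (0.97), CAT (0.97), SLC66A3 (0.96) and ARRDC4 (0.95). SLFN5, a Schlafen family gene induced by interferon, averaged 9.13 in Control, 7.36 and 7.28 in TM 12 h and 24 h, and 10.2 in both Cis 12 h and Cis/TM 12 h. In Cis 24 h and Cis/TM 24 h SLFN5 averaged 9.81 and 9.77, both above its Control mean, while TXNIP in Cis/TM 24 h overlapped Control. CAT, which encodes the hydrogen peroxide scavenger catalase, averaged 9.10 in Control, 8.46 and 8.31 in TM, and 9.25 to 9.41 in the 12 h groups with cisplatin.

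**Figure D3:**
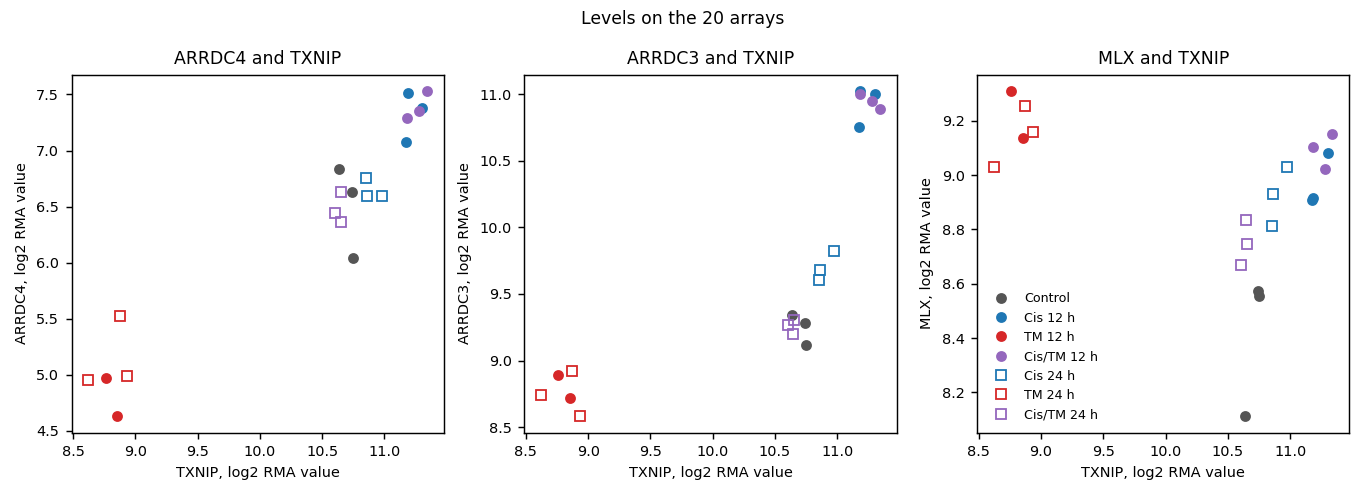
Log2 RMA level of ARRDC4, ARRDC3 and MLX (y axes) against that of TXNIP (x axis), with 1 point for each of the 20 arrays, filled for Control and 12 h and open for 24 h, coloured by treatment. The 5 arrays of TM alone sit apart at a TXNIP level of 8.62 to 8.93, and are below all others for ARRDC4 and ARRDC3. For MLX they are high, at 9.03 to 9.31, but overlap the other arrays, which reach 9.15.

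Genes of the pathway were taken from 9 lists. The NEDD4 family ubiquitin ligases, which alpha-arrestins recruit through PPxY motifs, moved in the opposite direction to ARRDC3 under cisplatin. In Cis 12 h against Control 8 of 9 fell and 0 rose, beside 10.8% of all genes called lower, with a median of −1.03 beside −0.01 over all genes. Without Cis 12 h replicate A and TM 24 h replicate A it was again 8 of 9, with a median of −0.89. SMURF2 fell by 1.44 (SE 0.10, adjusted p = 1.1e-09), WWP1 by 1.05 (adjusted p = 1.1e-07), NEDD4 by 1.05 (adjusted p = 1.5e-07) and ITCH, the ligase known to target TXNIP itself, by 1.03 (adjusted p = 2.0e-07). SMURF1 was the exception at −0.43 (adjusted p = 0.0419). In Cis/TM 12 h 8 of 9 fell (8.55% of all genes were called lower), with a median of −0.76. At 24 h 3 of 9 were lower in each group with cisplatin, SMURF2, HECW1 and HECW2 (4.90% of all genes in Cis 24 h and 2.48% in Cis/TM 24 h), and from Cis 12 h to Cis 24 h 5 of 9 rose (7.21%), or 3 of 9 without those 2 arrays, where WWP1 and SMURF1 were no longer called. HECW1 and HECW2 were also among the 8 at 12 h. They averaged 4.69 and 4.38 in Cis 24 h, a level at which the arrays do not tell a low signal from none. TM alone left the list at medians of 0.21 and 0.11 against Control, and TM added to cisplatin gave 0 calls of 9 at either time. NEDD4L, chosen after its values were seen, stood at 1.23 and 1.05 against Control with TM alone (12 h and 24 h), and fell by 1.04 after 12 h of cisplatin.

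**Figure D4:**
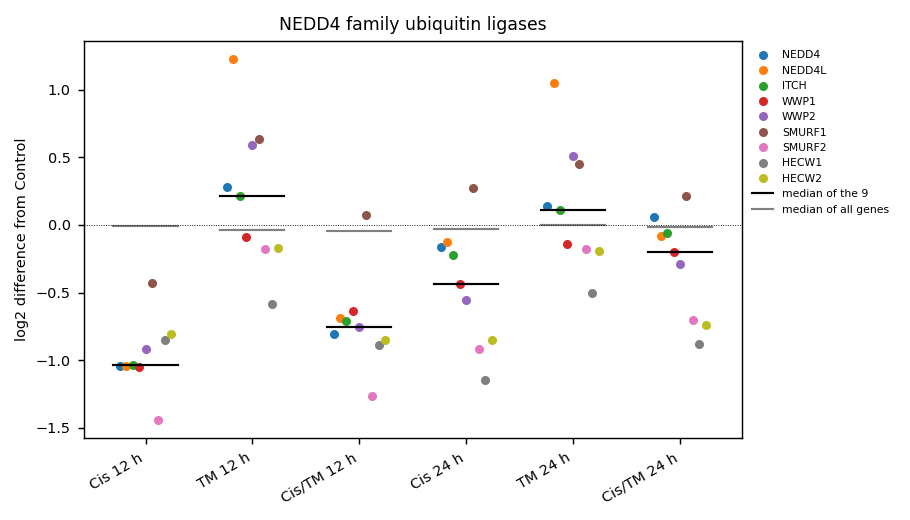
Log2 difference from Control (y axis) of the 9 NEDD4 family ubiquitin ligases in the 6 treated groups (x axis), with 1 point for each gene, a black bar for their median and a grey bar for the median of all genes. In Cis 12 h all 9 points lie below 0 with a median of −1.03, and in TM 12 h the median is 0.21.

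Glucose handling, which MondoA senses and TXNIP restrains, was covered by 12 measured genes of 14. In Cis 12 h against Control 4 rose (SLC2A3, G6PC3, SLC37A4 and GPI) and 2 fell (SLC2A12 and HK2), beside 14.8% of all genes called higher and 10.8% called lower, so that the share that fell, 2 of 12, was near the background. In Cis 24 h SLC2A3, G6PC3, SLC37A4 and GPI rose and 0 fell, beside 11.5% of all genes called higher and 4.90% called lower. SLC2A3, the high-affinity glucose transporter GLUT3, rose by 1.26 in Cis 12 h (adjusted p = 1.1e-08) and by 1.31 in Cis/TM 12 h (adjusted p = 9.0e-09). G6PC3, a glucose 6-phosphatase present in most tissues, rose by 1.30 in Cis 12 h (adjusted p = 6.3e-08), and SLC37A4, which carries glucose 6-phosphate into the endoplasmic reticulum, by 1.16 (adjusted p = 3.3e-05). The Control arrays of SLC37A4 were low and spread, at 4.98 to 5.97 (SD 0.52), so the size of its differences from Control is uncertain. SLC2A12, another transporter, fell by 0.74 in Cis 12 h (adjusted p = 6.6e-06) and rose by 0.94 from 12 h to 24 h of cisplatin (adjusted p = 2.0e-06). In TM alone the median of the list was 0.77 at 12 h and 0.55 at 24 h, beside −0.04 and −0.00 over all genes. TM added to cisplatin gave 1 call of 12, at 24 h, where G6PC3 fell by 0.67 (adjusted p = 0.00936).

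Known targets of MondoA or ChREBP other than TXNIP and ARRDC4 (13 measured of 14) did not move one way. In Cis 12 h 3 rose (PFKFB3, FASN and TKT) and 3 fell (ELOVL6, ACACA and HK2, which the glucose list also holds), beside 14.8% of all genes called higher and 10.8% called lower. PFKFB3, a driver of glycolysis, rose by 1.23 in Cis/TM 12 h (adjusted p = 4.8e-07). ELOVL6 and ACACA, both of fatty acid synthesis, fell by 1.47 and 1.35 in Cis 12 h (adjusted p = 1.5e-07 and 1.9e-07), while ACACB, the mitochondrial acetyl-CoA carboxylase, rose by 0.93 in Cis 24 h (adjusted p = 9.7e-06). ACACB averaged 4.71 in Control, a level at which the arrays do not tell a low signal from none. The size of its differences from Control is therefore uncertain. KLF10, a glucose-induced repressor chosen after its values were seen, stood at −0.50 and −0.62 in TM 12 h and TM 24 h against Control, on the side of TXNIP. PFKFB3 and HK2 stood on the other side at 12 h of TM, at 0.95 and 0.75. So did most of the list. Its median in TM alone was 0.33 at 12 h and 0.26 at 24 h, beside −0.04 and −0.00 over all genes. In Cis/TM 24 h against Control ACACB rose and ACACA fell, beside 4.54% of all genes called higher and 2.48% called lower, and TM added to cisplatin gave 0 calls of 13 at either time.

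In the MYC/MAX/MLX network (10 of 10 measured), the dimerization relatives of MLX, 2 were called in Cis 12 h and 3 in Cis/TM 12 h, beside 25.5% and 23.8% of all genes, shares near the background. MXD1, a MAX partner that represses MYC targets, rose by 0.95 and 0.79 with cisplatin (12 h and 24 h) and by 1.0 and 0.62 with both drugs (adjusted p from 3.2e-06 to 0.00239). MGA, a repressor that also pairs with MAX, fell by 1.16 in Cis 12 h (adjusted p = 1.6e-06) and by 0.59 in Cis/TM 12 h (adjusted p = 0.00233). MXD4 rose by 0.60 in Cis/TM 12 h (adjusted p = 1.8e-04), and the other 7 were not called against Control. Of 9 factors known to act on the TXNIP promoter, 1 was called in Cis 12 h and 2 in Cis/TM 12 h, beside the same shares of all genes. USF1, an E-box binding factor, rose by 1.45 in Cis 12 h (adjusted p = 6.2e-07) and by 1.60 in Cis/TM 12 h (adjusted p = 2.1e-07). It fell by 0.61 when TM was added to cisplatin for 24 h (adjusted p = 0.0459). NFYB, a subunit of the CCAAT binding factor, rose by 0.64 in Cis/TM 12 h (adjusted p = 9.9e-05).

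The thioredoxin system, to which TXNIP binds, was measured in 7 genes of 8, of which 1 rose and 2 fell in both Cis 12 h and Cis/TM 12 h (14.8% and 15.2% of all genes were called higher, 10.8% and 8.55% lower). TXN2, the mitochondrial thioredoxin, rose by 2.24 in Cis 12 h and 2.32 in Cis/TM 12 h (adjusted p = 4.5e-07 and 3.6e-07) and stood at 2.13 and 1.43 in TM 12 h and 24 h. Its Control arrays, which all these differences share, were low and spread, at 4.74 to 5.83 (SD 0.55), so their size is uncertain. TXN, the cytosolic thioredoxin, differed by 0.05 in Cis 12 h (adjusted p = 0.786). TXNRD1, which reduces it, fell by 0.84 in Cis 12 h (adjusted p = 7.9e-08), and MAP3K5, the kinase ASK1 held by thioredoxin, fell by 1.59 in Cis/TM 12 h (adjusted p = 2.0e-06). DDIT4, a stress gene whose product pairs with TXNIP, fell by 0.59 in Cis 24 h (adjusted p = 0.00151) and stood at −1.26 in TM at both times.

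Of the AMPK and LKB1 genes (8 of 8 measured), the kinase pathway that marks TXNIP for degradation, 3 rose and 2 fell in Cis 12 h, beside 14.8% and 10.8% of all genes. The regulatory subunits PRKAB1, PRKAB2 and PRKAG1 rose by 1.35, 1.0 and 0.61, and the catalytic subunits PRKAA1 and PRKAA2 both fell by 0.61 (adjusted p from 1.1e-08 to 2.2e-04). Without Cis 12 h replicate A and TM 24 h replicate A the calls of PRKAA1 and PRKAA2 were lost, at −0.54 and −0.52. In Cis/TM 12 h PRKAB1, PRKAB2 and PRKAG1 rose and 0 genes fell (15.2% and 8.55% of all genes), PRKAG1 by 0.64 (adjusted p = 3.1e-05). Of the other arrestin-fold genes (5 of 8 measured) 0 were called against Control in limma. ARRB1, which encodes beta-arrestin 1, rose by 0.93 from Cis 12 h to Cis 24 h (adjusted p = 0.00135). Of the ARRDC3 cargo 2 of 4 were measured, and neither was called in any of the 9 tested comparisons. ITGB4 differed from Control by 0.22 in Cis 12 h (adjusted p = 0.119) and by −0.43 in Cis/TM 24 h (adjusted p = 0.0108). It averaged 5.18 in Cis/TM 24 h, near the level of ARRDC1, where the arrays do not tell a low signal from none. F2R, the other cargo gene measured, differed from Control by −0.51 in Cis 12 h (adjusted p = 1.3e-04). In Cis 24 h it differed by −0.48 (adjusted p = 4.2e-04), and both values stayed under the fold minimum.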

How the data were processed

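RNA of 20 MDA-MB-231 samples was measured on Affymetrix Human Gene 1.0 ST arrays. The authors normalized and summarized the arrays by RMA and deposited log2 values for 33297 transcript clusters, which were used as given. Small differences at low signal are compressed by this method, and no background measure comes with the values. The number of arrays limits the precision. The study's methods name RNeasy for the RNA and the labels Trizol.

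Of 21214 annotated clusters 19460 had a single symbol, and the cluster with the highest mean stood for each of 18417 genes. Clusters with several symbols (1754) were left out. One linear model over 7 groups (13 residual degrees of freedom) was fitted with limma 3.58.1 in R 4.3.3, with eBayes moderation, Benjamini-Hochberg adjustment over all genes and a fold minimum of 1.5, in 9 comparisons. The procedure was tested on simulated data. Genes named are the 8, the 5 with the highest r with TXNIP, up to 4 called genes of each list by the smallest adjusted p, and others that make up a count of 5 or fewer or were picked after their values were seen. The 8 genes and the lists were chosen with earlier results of these data known. Promoter windows came from RefSeq (GRCh38.p14).

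Alternatives were median centring, quantile normalization, removal of the trend with level, a filter of the lowest 25% of genes, all clusters as features, a variance trend, a fit on the compared groups only, unadjusted p, the replicate letter as a block, and leaving out each array. Replicate letters were found not to pair arrays.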

Additional observations from a re-analysis of the deposited data

Results flagged for a closer look

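MLXIP (MondoA) was higher in TM alone than in Control and lower in Cis/TM than in Cis, on all arrays of the groups compared. For Cis/TM against Cis at 12 h this rests on nearly equal arrays. The highest Cis/TM 12 h array read 6.8905 and the lowest Cis 12 h array 6.8924, beside a residual SD of 0.115. At 12 h TM alone stood at 0.47 against Control and Cis/TM at −0.067 against Cis. At 24 h the values were 0.43 and −0.30 (adjusted p = 0.124 for the latter), and the latter was −0.17 without Cis/TM 24 h replicate B. Neither Cis/TM difference was called. Arrays did not overlap for 50.0% (12 h) and 29.0% (24 h) of all genes in TM against Control. In Cis/TM against Cis the shares were 15.2% and 29.1%. The difference between TM alone and TM added to cisplatin was not tested, since it contains the arrays for which the genes were chosen. Quantile normalization reduced the TM values to 0.23 and 0.29.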

How the results depend on the processing

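Of 680 values of the 8 genes in the 9 tested comparisons under the planned and added alternatives, 674 kept their side of the threshold, 5 lost and 1 gained a call, and 0 called values changed sign. In Cis 12 h against Control 1 of the 8 genes was called, in place of 2, when the trend with level was removed. TXNIP in TM 12 h against Control was −2.04 after quantile normalization and −2.03 with the trend removed, in place of −1.90. Median centring moved the median of all genes to −0.16 in Cis 12 h and Cis/TM 12 h and to −0.12 in Cis 24 h against Control. With 1 array left out, the number of genes called ran from 0 to 1 in Cis 24 h against Control (1 without Control replicate B), from 1 to 2 in Cis 24 h against Cis 12 h (1 without Cis 12 h replicate C), from 2 to 3 in Cis 12 h and from 2 to 4 in Cis/TM 12 h against Control, and TXNIP ran from −1.95 to −1.86 in TM 12 h and from −1.96 to −1.81 in TM 24 h. Leaving out both Cis 12 h replicate A and TM 24 h replicate A, chosen after seeing the data, gave 3 called genes in Cis 12 h against Control (MLX added), and of 45 calls of pathway genes in the comparisons that hold Cis 12 h or TM 24 h 38 remained and 0 were gained. Replicate letters did not pair the arrays, since residuals of arrays with the same letter had a median correlation of 0.01 over 57 pairs (−0.42 to 0.61) and 6 of 20 arrays correlated best with their own letter. With the letter as a replicate block, 2 genes were called in Cis 12 h and 3 in Cis/TM 12 h against Control, 2 in Cis 24 h against Cis 12 h, 3 in Cis/TM 24 h against Cis/TM 12 h and 0 in the other 5 comparisons, and TXNIP in TM 12 h against Control was −1.91, so that no count changed. The number of arrays, 2 or 3 a group, limits the precision.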
